A study of Homo sapiens with 8 samples.

Results

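The genes described here are 50 genes of mitosis, the spindle and the kinetochore, out of 19775 genes represented on the arrays. They were chosen by gene symbol from what is known of their function, with earlier results of these data known. All 50 had at least 1 probe set, 99 in total, and each gene is represented by its probe set with the highest mean over the 8 arrays. RNA was measured in H460, a line grown from a human large-cell carcinoma of the lung. There were 4 arrays of cells with acquired TRAIL resistance (H460R) and 4 arrays of TRAIL-sensitive control cells (H460S). TRAIL is a ligand that triggers apoptosis through death receptors. The H460R cells had received TRAIL daily for 6 months. The labels attach this treatment text to both groups, and H460S is taken as untreated because it is labelled control. Both lines were grown in RPMI with serum. The labels do not say whether the resistant cells are 1 clone or a mixed population, how long they had been free of TRAIL, or how long the control cells had been in culture, so resistance cannot be told apart from these. Separate cultures for the arrays of a group are not stated either, so each p-value rests on the spread among these arrays alone, and that spread may be technical.

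Cells enter mitosis when the kinase CDK1, bound to cyclin A or B, is activated. Chromosomes then condense, kinetochores assembled on the centromeres attach to spindle microtubules, and a checkpoint holds back the anaphase-promoting complex until attachment is complete. This ubiquitin ligase, with its activator CDC20, then triggers the loss of securin and cyclin B, and the cell divides. Most of these genes are transcribed late in the cell cycle and repressed in resting cells through the DREAM complex, which binds the CHR element (TTTGAA or TTCGAA) in their promoters, while NF-Y binds CCAAT boxes nearby. Their RNA level in a culture therefore depends on how many cells are cycling. In bulk RNA, fewer cells in late cell cycle and less RNA per cell cannot be told apart.

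The promoters of the 4 genes with the largest changes among those with a single promoter entry are shown first, because members that moved together can be compared for these shared elements. Sequences are from RefSeq (GRCh38.p14), 250 bases before and 50 after the annotated start site, in lower case. Capitals mark each CCAAT box (read on the other strand as ATTGG) and each CHR match (TTTGAA, on the other strand TTCAAA, or TTCGAA, the same on both). CDC20 lies at chr1:43358731-43359030, ANLN at chr7:36389612-36389911, KIF20A at chr5:138178862-138179161 and ESPL1 at chr12:53268049-53268348, each on the plus strand.
CDC20: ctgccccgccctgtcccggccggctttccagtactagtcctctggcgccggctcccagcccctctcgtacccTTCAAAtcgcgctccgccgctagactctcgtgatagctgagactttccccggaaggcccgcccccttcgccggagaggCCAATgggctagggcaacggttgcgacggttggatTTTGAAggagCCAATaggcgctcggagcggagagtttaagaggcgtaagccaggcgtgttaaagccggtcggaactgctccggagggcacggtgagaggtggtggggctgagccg
ANLN: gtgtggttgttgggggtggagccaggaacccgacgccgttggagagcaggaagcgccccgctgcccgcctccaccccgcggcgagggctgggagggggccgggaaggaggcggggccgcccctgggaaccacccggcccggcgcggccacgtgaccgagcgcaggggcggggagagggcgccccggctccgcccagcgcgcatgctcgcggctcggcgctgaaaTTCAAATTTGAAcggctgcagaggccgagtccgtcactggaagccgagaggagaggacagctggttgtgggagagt
KIF20A: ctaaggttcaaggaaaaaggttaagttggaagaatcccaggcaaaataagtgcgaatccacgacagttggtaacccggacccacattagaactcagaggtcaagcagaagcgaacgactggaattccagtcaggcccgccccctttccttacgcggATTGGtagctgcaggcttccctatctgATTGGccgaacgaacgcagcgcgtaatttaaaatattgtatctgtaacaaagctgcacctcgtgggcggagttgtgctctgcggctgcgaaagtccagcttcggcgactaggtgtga
ESPL1: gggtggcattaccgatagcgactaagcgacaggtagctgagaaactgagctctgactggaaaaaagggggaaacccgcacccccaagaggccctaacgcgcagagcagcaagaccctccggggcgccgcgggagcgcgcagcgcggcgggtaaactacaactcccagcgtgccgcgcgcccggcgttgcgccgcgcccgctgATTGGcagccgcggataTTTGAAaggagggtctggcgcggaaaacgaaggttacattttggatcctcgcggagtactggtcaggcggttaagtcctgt
The CDC20 window holds CCAAT at -100 to -96 and at -55 to -51 from the start site, TTTGAA between them at -65 to -60, and a reversed TTTGAA farther out at -178 to -173. In the ESPL1 window a reversed CCAAT at -48 to -44 is followed by TTTGAA at -31 to -26. ANLN has 2 adjoining CHR matches, at -26 to -21 and -20 to -15, and no CCAAT. KIF20A has 2 reversed CCAAT boxes, at -94 to -90 and -67 to -63, and no CHR match in this window.

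Of the 50 genes, 43 had promoter entries, 55 windows in all. A CHR match on either strand lay in 38 of these windows (69.1%), against 16.4% of all 35116 promoters in the table. CCAAT lay in 39 (70.9%), against 34.6% of all promoters. Both together lay in 30 (54.5%), against 6.38% of all promoters. By call, windows of genes that rose held a CHR match in 18 of 29 cases (62.1%) and those of genes that did not pass the test in 18 of 22 (81.8%). For CCAAT the counts were 25 of 29 (86.2%) and 12 of 22 (54.5%). Windows of 1 gene can overlap, and these shares are descriptions with no test.

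Genes of mitosis were often higher in resistant cells, by more than 2-fold for a few, while many others did not pass the test. Of the 50 genes, 27 rose in resistant cells (54%), 1 fell and 22 did not pass the test. A gene passed when its adjusted p in limma, with Benjamini-Hochberg adjustment over all genes, was under 0.05. Among all genes 30.3% passed, with 14.7% rising and 15.6% falling. All of the members were brighter than the median probe set, however, and bright genes pass more often. Among the 8381 genes at least as bright as the dimmest member, 27.1% rose and 25.9% fell. The median change of the 50 genes was 0.33, against -0.03 over all genes and 0.02 over the bright ones. Changes are differences of log2(signal + 1), resistant minus sensitive, and each error is the standard error that limma gives for n = 4 arrays a group.

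All 4 resistant arrays lay above all 4 sensitive arrays for 30 members, against 16.5% of all genes. The reverse held for 1 member, against 17.4% of all genes. The shares of all genes in this paragraph include dim genes, and they were not computed over the bright genes alone. A rise of at least 1.5-fold that also passed the test was seen in 10 members, against 7.84% of all genes. One of at least 2-fold that passed was seen in 3 (CDC20, ANLN and KIF20A), against 3.12%. KIF23 was 1.6-fold higher without passing. The changes ran between -0.32 and 1.39, so most were under 2-fold. The median deviation of the members from their own means was 0.14 to 0.17 on the resistant arrays and -0.18 to -0.14 on the sensitive arrays, so no single array carried the difference.

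**Figure D1:**
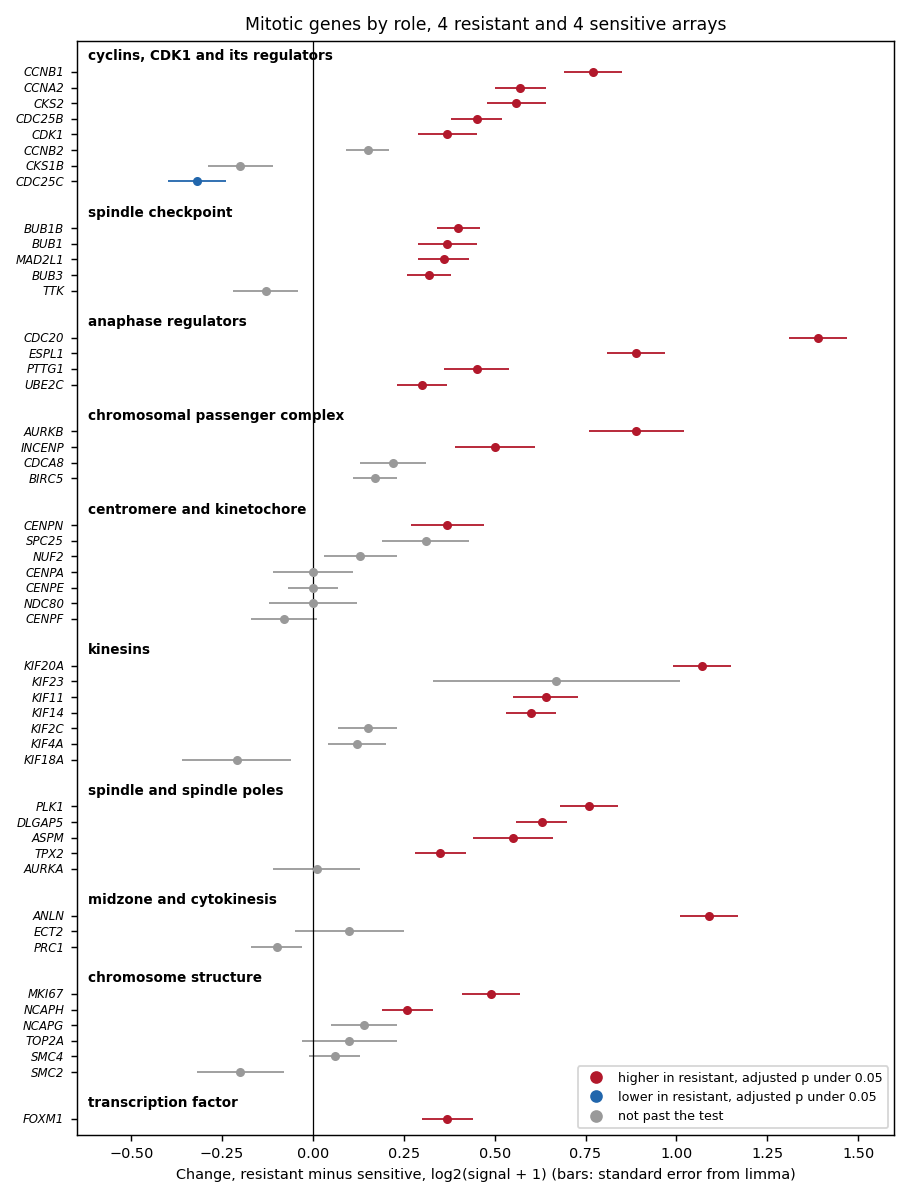
Change of each of the 50 genes, grouped by role, on the log2(signal + 1) scale, resistant minus sensitive; points are limma estimates, bars standard errors, and colour shows the side of the test. All 4 anaphase regulators lie to the right of 0, and most centromere and kinetochore genes lie near it.

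Array quality was similar in most respects. The mean correlation of an array with others of its group was 0.959 to 0.965 for resistant and 0.955 to 0.958 for sensitive arrays, against 0.937 to 0.943 between groups. Resistant array 4 and sensitive array 1 had the highest maximum signals of their groups, so the counts that matter were also made without both. The difference between 3' and 5' control probe sets of ACTB, which moves with RNA degradation and labelling, averaged 0.112 on resistant and 0.230 on sensitive arrays, without overlap (exact two-sided permutation p = 0.0286, the smallest that 4 against 4 arrays allow, 0.0857 adjusted over 3 measures). The same difference for GAPDH averaged -0.126 on resistant and -0.141 on sensitive arrays (exact permutation p = 0.686). The part of the ACTB difference in the changes was not tested. The epithelial keratins KRT18, KRT8 and KRT19 had mean log2 levels of 13.12, 11.36 and 11.28 on resistant and 13.18, 11.41 and 12.52 on sensitive arrays. Of 5 epithelial markers 2 were lower in resistant cells, KRT19 with a change of -1.24 (adjusted p = 0.000116) and KRT7 with -0.37 (adjusted p = 0.0299). KRT7 lay at 8.26 on resistant and 8.63 on sensitive arrays, and with each array centred on its median it did not pass (-0.30, adjusted p = 0.105). The part of these differences in the changes of the mitotic genes was not tested. The epithelial marker EPCAM lay at 3.83 on resistant and 4.40 on sensitive arrays, under the median probe set (5.01). Of 7 measured markers of blood, endothelial and stromal cells, 0 passed in limma, and 0 had an unadjusted p under 0.05. Among them COL3A1, a fibrillar collagen, was bright in both groups (9.95 on resistant and 9.96 on sensitive arrays). CD14 lay at 6.67 on resistant and 6.47 on sensitive arrays, and PECAM1 at 5.73 and 6.14, above the median probe set. PTPRC, the leukocyte antigen CD45, lay at 3.29 on resistant and 2.55 on sensitive arrays. CD3E, VWF and DCN lay at 3.58, 3.25 and 4.05 on resistant and at 4.17, 3.35 and 5.21 on sensitive arrays.

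**Figure D2:**
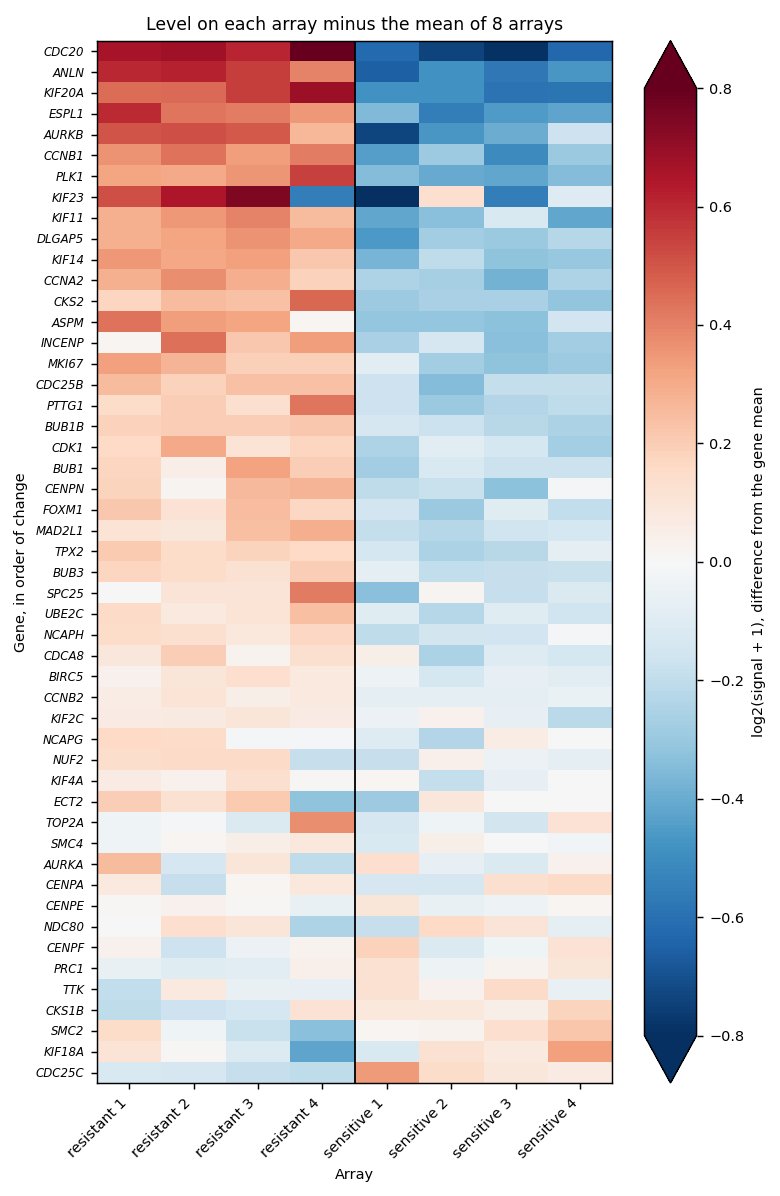
Level of each of the 50 genes on each array minus its mean over 8 arrays, log2(signal + 1), with genes in order of change and the 4 resistant arrays left of the 4 sensitive arrays. Most rows are red on all resistant arrays and blue on all sensitive ones, with KIF23 as a visible exception on resistant array 4.

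Most of the cyclins and activators that drive mitotic entry were higher in resistant cells: 5 of 8 rose (62.5%), 1 fell and the median change was 0.41. Over all genes 14.7% rose and 15.6% fell. Over genes at least as bright as the dimmest member, called the bright genes here, 27.1% rose and 25.9% fell. No role group was tested against these shares. CCNB1, which encodes cyclin B1, had log2 levels of 11.74, 11.81, 11.71 and 11.79 on resistant arrays, against 10.94, 11.09, 10.87 and 11.08 on sensitive arrays. The lowest resistant array lay well above the highest sensitive one. CCNB1 rose by 0.77 ± 0.08 (SE), or 1.70-fold, with an adjusted p of 0.000366 in limma. Its second probe set changed by a like amount (0.81 ± 0.15). CCNA2, the gene of cyclin A2, which acts in S phase and early mitosis, rose by 0.57 ± 0.07 (adjusted p = 0.000961). Its levels were 10.14 to 10.33 on resistant and 9.58 to 9.71 on sensitive arrays. CDK1, the catalytic partner of these cyclins, rose less, by 0.37 ± 0.08 (adjusted p = 0.00947).

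The second B-type cyclin gene, CCNB2, did not pass. Its levels were 10.85, 10.90, 10.84 and 10.87 on resistant arrays, against 10.71, 10.71, 10.71 and 10.74 on sensitive arrays. The groups did not overlap, by a small step, at a difference of 0.15 ± 0.06 (adjusted p = 0.0993). CKS2 and CKS1B encode small proteins that bind CDK1 and help it act on its substrates. CKS2 stood at 12.58, 12.66, 12.64 and 12.87 on resistant arrays, against 12.12, 12.15, 12.15 and 12.09 on sensitive arrays, and rose by 0.56 ± 0.08 (adjusted p = 0.00174). CKS1B went the other way without passing, at -0.20 ± 0.09 (adjusted p = 0.151). Its resistant array 4, at 12.56, lay within the sensitive range of 12.49 to 12.62, and the other resistant arrays lay at 12.24 to 12.30. Without resistant array 4 CKS1B changed by -0.27 and passed (adjusted p = 0.0271), and it passed as well with that array and sensitive array 1 left out (-0.27, adjusted p = 0.0438).

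The phosphatases that remove inhibitory phosphates from CDK1 differed from each other. CDC25B, active at mitotic entry, rose by 0.45 ± 0.07 (adjusted p = 0.00244), with 10.68 to 10.75 on resistant and 10.15 to 10.33 on sensitive arrays. CDC25C was the 1 member that fell. It had 7.72, 7.71, 7.66 and 7.64 on resistant arrays, against 8.18, 7.99, 7.93 and 7.91 on sensitive arrays, a change of -0.32 ± 0.08 (adjusted p = 0.0213). This call was not firm: with resistant array 3 left out the adjusted p was 0.0588, and with the mean of its 3 probe sets the change was 0.03 (adjusted p = 0.941). Adjusted over all 54613 probe sets, the same probe set did not pass (adjusted p = 0.0570).

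**Figure D3:**
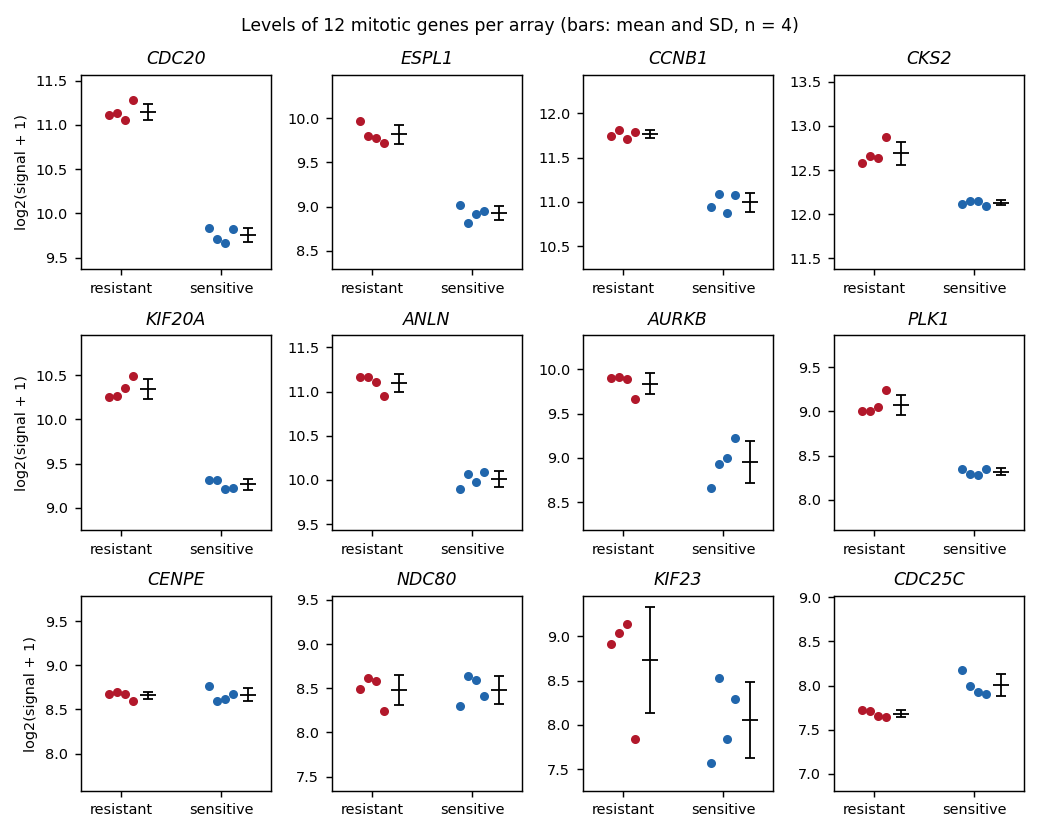
Levels of 12 genes on each array, log2(signal + 1), resistant left of sensitive, with mean and SD (n = 4) beside the points; all panels span the same range of 2.2 log2 units. CDC20, ESPL1, CCNB1, CKS2, KIF20A, ANLN, AURKB and PLK1 do not overlap between groups, CENPE and NDC80 do, and KIF23 is scattered in both.

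Every anaphase regulator rose, 4 of 4 (against 27.1% of the bright genes), with a median change of 0.67. CDC20, which activates the anaphase-promoting complex and is the target of the spindle checkpoint, had the largest change of all 50 genes. Its log2 levels were 11.11, 11.13, 11.06 and 11.28 on resistant arrays, against 9.83, 9.71, 9.66 and 9.82 on sensitive arrays. More than 1 log2 unit separated the groups, and the rise was 1.39 ± 0.08, or 2.62-fold (adjusted p = 3.41e-05). ESPL1 encodes separase, the protease that cuts cohesin at anaphase. It had 9.97, 9.80, 9.78 and 9.72 on resistant arrays, against 9.02, 8.82, 8.92 and 8.95 on sensitive arrays, and rose by 0.89 ± 0.08 (adjusted p = 0.000263). Its other probe set rose by 0.94 ± 0.13. PTTG1, the gene of securin, which inhibits separase, rose by 0.45 ± 0.09 (adjusted p = 0.00787). UBE2C, a ubiquitin-conjugating enzyme of the anaphase-promoting complex, rose by 0.30 ± 0.07 (adjusted p = 0.0169). Both groups of arrays were apart for these genes too. Adjusted over all probe sets UBE2C did not pass (adjusted p = 0.0551). PTTG1, BUB3, CENPA and FOXM1 are each represented by a probe set whose suffix marks possible cross-hybridisation. CDC20 was read by 1 probe set alone, of suffix _s_at, so the alternative without suffixed probe sets did not measure it.

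Most of the spindle checkpoint genes rose, by small and nearly equal amounts. Of 5, 4 rose (80%, against 27.1% of the bright genes), with a median change of 0.36 over all 5. BUB1B, which encodes the checkpoint protein BUBR1, had 10.73, 10.74, 10.74 and 10.76 on resistant arrays, against 10.41, 10.37, 10.32 and 10.29 on sensitive arrays. With so little spread, a rise of 0.40 ± 0.06 passed (adjusted p = 0.00247). The checkpoint kinase gene BUB1 rose by 0.37 ± 0.08, MAD2L1, whose product binds CDC20, by 0.36 ± 0.07, and BUB3, which docks BUB1 and BUBR1 at kinetochores, by 0.32 ± 0.06. BUB3 depended on its probe set: with the mean of its 6 probe sets the change was 0.10 (adjusted p = 0.643). BUB1 did not pass with the mean of its 5 probe sets (0.32, adjusted p = 0.243), or without resistant array 4 and sensitive array 1 (0.33, adjusted p = 0.0542). The other probe sets of MAD2L1 changed by 0.35 ± 0.16 and 0.06 ± 0.11 and did not pass (limma adjusted p over all probe sets 0.182 and 0.771). TTK, the checkpoint kinase MPS1, did not pass, at -0.13 ± 0.09 (adjusted p = 0.347), with resistant arrays at 9.01 to 9.29 and sensitive arrays at 9.15 to 9.36.

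Few of the 7 kinetochore and centromere members differed beyond the spread between arrays. Of the 7, 1 rose (14.3%) and 0 fell. Over all genes, dim ones included, 14.7% rose and 15.6% fell, and over the bright genes 27.1% and 25.9%. An unadjusted p under 0.05 was found for 2, and the median change was 0.00. Among 28 other kinetochore and centromere genes 13 rose (46.4%). CENPE, a kinesin that carries chromosomes to the spindle equator, had 8.67, 8.70, 8.67 and 8.60 on resistant arrays, against 8.76, 8.60, 8.62 and 8.68 on sensitive arrays. The groups overlapped fully, and the 95% interval of the difference ran between -0.16 and 0.16. NDC80, which binds microtubules at the outer kinetochore, had 8.49, 8.62, 8.58 and 8.24 on resistant arrays, against 8.30, 8.64, 8.59 and 8.41 on sensitive arrays. Its interval was -0.28 to 0.28. CENPA, the histone H3 variant that marks centromeres, had an interval of -0.26 to 0.25. For these 3 genes a change as large as that of CDC20 lies outside the interval.

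The partners of NDC80 in its complex, NUF2 and SPC25, changed by 0.13 ± 0.10 and 0.31 ± 0.12 (adjusted p = 0.407 and 0.102). CENPF, a large protein of the outer kinetochore, changed by -0.08 ± 0.09 (adjusted p = 0.620) on its brightest probe set. Its dimmest probe set, at a mean log2 level of 5.40, changed by 1.05 ± 0.28, and the mean of all 3 by 0.39 (adjusted p = 0.0339). The 1 gene that rose was CENPN, which reads CENPA nucleosomes, by 0.37 ± 0.10 (adjusted p = 0.0267). This call was near the threshold. Leaving out resistant array 1, 3 or 4 or sensitive array 1, 2 or 3 gave changes of 0.32 to 0.37. The adjusted p-values were then 0.0590 to 0.0740. Of its 3 other probe sets, 2 rose, by 0.61 ± 0.08 and 0.51 ± 0.12 (limma adjusted p over all probe sets 0.00245 and 0.0216).

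The chromosomal passenger complex corrects faulty attachments and later acts in cytokinesis. Its kinase gene AURKB had 9.90, 9.91, 9.89 and 9.66 on resistant arrays, against 8.66, 8.93, 9.0 and 9.23 on sensitive arrays. The sensitive arrays were spread widely, yet the groups did not overlap, and AURKB rose by 0.89 ± 0.13 (adjusted p = 0.00220). A second, dimmer probe set rose by 1.11 ± 0.17. INCENP, the scaffold of the complex and the dimmest of all 50 genes, rose by 0.50 ± 0.11 (adjusted p = 0.0110), but not without resistant array 4 and sensitive array 1 (0.47, adjusted p = 0.0588). BIRC5, which encodes survivin and is also known as an inhibitor of apoptosis, did not pass, at 0.17 ± 0.06 (adjusted p = 0.0821). It lay at 10.98, 11.04, 11.08 and 11.02 on resistant arrays, against 10.90, 10.80, 10.88 and 10.85 on sensitive arrays, so the groups were apart by a small step. Of its 3 other probe sets, 1 rose, by 0.48 ± 0.10 (adjusted p = 0.0135), and the others changed by 0.03 and -0.03. CDCA8, the gene of borealin, changed by 0.22 ± 0.09 (adjusted p = 0.0989). In all, 2 of 4 rose (50%, against 27.1% of the bright genes).

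Of the 7 kinesins, 3 rose (42.9%, against 27.1% of the bright genes) and 0 fell, with a median change of 0.60. KIF20A, a motor of the central spindle needed for cytokinesis, had 10.25, 10.26, 10.36 and 10.49 on resistant arrays, against 9.32, 9.32, 9.21 and 9.22 on sensitive arrays. It rose by 1.07 ± 0.08, or 2.10-fold (adjusted p = 0.000102). KIF11, the motor that pushes spindle poles apart, rose by 0.64 ± 0.09 (adjusted p = 0.00144), and KIF14, which acts in cytokinesis, by 0.60 ± 0.07 (adjusted p = 0.000709). The groups were apart for all 3 genes.

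The other 4 kinesins did not pass. KIF23, a motor of the centralspindlin complex, had 8.91, 9.04, 9.14 and 7.84 on resistant arrays, against 7.57, 8.53, 7.84 and 8.29 on sensitive arrays. Resistant array 4 lay more than 1 log2 unit under the other resistant arrays. The change was 0.67 ± 0.34 (adjusted p = 0.195), and without that array it was 0.97 and passed (adjusted p = 0.0280). KIF2C, which depolymerises microtubules at centromeres, changed by 0.15 ± 0.08, and KIF4A, a motor of chromosomes and the midzone, by 0.12 ± 0.08. KIF18A, which dampens chromosome movements, changed by -0.21 ± 0.15 (adjusted p = 0.358).

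At the spindle and its poles 4 of 5 genes rose (80%, against 27.1% of the bright genes), with a median change of 0.55. PLK1, the kinase that drives centrosome maturation and many later steps of mitosis, had 9.01, 9.0, 9.05 and 9.24 on resistant arrays, against 8.35, 8.29, 8.28 and 8.35 on sensitive arrays. It rose by 0.76 ± 0.08, or 1.69-fold (adjusted p = 0.000398). DLGAP5, which stabilises spindle microtubules, rose by 0.63 ± 0.07 (adjusted p = 0.000704), and ASPM, a protein of the spindle poles, by 0.55 ± 0.11 (adjusted p = 0.00662). On probe sets without the suffix _x_at or _s_at ASPM did not pass (0.47, adjusted p = 0.084). TPX2, which activates Aurora A on the spindle, rose by 0.35 ± 0.07 (adjusted p = 0.00688). AURKA, the gene of Aurora A itself, had 11.84, 11.45, 11.68 and 11.38 on resistant arrays, against 11.72, 11.52, 11.47 and 11.62 on sensitive arrays. It changed by 0.01 ± 0.12, with a 95% interval of -0.28 to 0.29, and its other probe sets by -0.17 and -0.27, none of which passed. The difference between AURKA and AURKB in their changes was not tested.

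Of 3 genes of the midzone and cytokinesis, 1 rose (33.3%, near the 27.1% of the bright genes). ANLN encodes anillin, a scaffold of the contractile ring. Its levels were 11.16, 11.17, 11.11 and 10.95 on resistant arrays, against 9.90, 10.07, 9.98 and 10.09 on sensitive arrays, a rise of 1.09 ± 0.08 or 2.12-fold (adjusted p = 0.000115). Its other probe set rose by 1.19 ± 0.15. PRC1, which bundles midzone microtubules, changed by -0.10 ± 0.07 (adjusted p = 0.359). ECT2, the exchange factor that activates RhoA at the division plane, changed by 0.10 ± 0.15 (adjusted p = 0.678). KIF20A, KIF23 and KIF14 also act at this stage, so cytokinesis genes both rose and stayed short of the test.

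Genes of chromosome structure showed 2 rises among 6 (33.3%, near the 27.1% of the bright genes) and a median change of 0.12. MKI67, which encodes the proliferation antigen Ki-67 that coats mitotic chromosomes, had 10.34, 10.28, 10.20 and 10.20 on resistant arrays, against 9.92, 9.73, 9.69 and 9.72 on sensitive arrays. It rose by 0.49 ± 0.08 (adjusted p = 0.00340), and 2 of its 3 other probe sets rose, by 0.68 ± 0.09 and 1.05 ± 0.10. TOP2A, the topoisomerase that disentangles sister chromatids, had 11.00, 11.03, 10.92 and 11.41 on resistant arrays, against 10.90, 11.00, 10.89 and 11.15 on sensitive arrays. The groups overlapped, and the change was 0.10 ± 0.13 (adjusted p = 0.610). Among the condensin genes, NCAPH rose by 0.26 ± 0.07 (adjusted p = 0.0277). It lost its call without any of resistant arrays 1, 2, 3 and 4 or sensitive arrays 1, 2 and 3, at changes of 0.23 to 0.27 and adjusted p-values up to 0.0729. NCAPG, SMC4 and SMC2 changed by 0.14 ± 0.09, 0.06 ± 0.07 and -0.20 ± 0.12, and none passed. FOXM1, the transcription factor that activates many late cell cycle genes, rose by 0.37 ± 0.07 (adjusted p = 0.00792). Its levels were 9.50, 9.40, 9.53 and 9.45 on resistant arrays, against 9.13, 8.99, 9.19 and 9.09 on sensitive arrays.

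A second view of many members comes from their further probe sets. There were 49 further probe sets of 25 members, 43 of them brighter than the median probe set. Adjusted over all 54613 probe sets, of which 9.13% passed as higher and 10.4% as lower, 24 of the 50 representative probe sets were higher and 0 were lower. Where the representative passed, 12 of the 43 bright further probe sets passed in the same direction, 10 did not pass and 0 passed in the opposite one. Where it did not pass, 5 passed and 16 did not. These 5 belong to BIRC5, CENPF, CENPN (2) and SMC4. The SMC4 probe set, at a mean level of 6.37, rose by 1.32 ± 0.26, while the brightest one changed by 0.06 ± 0.09 in the same fit.

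**Figure D4:**
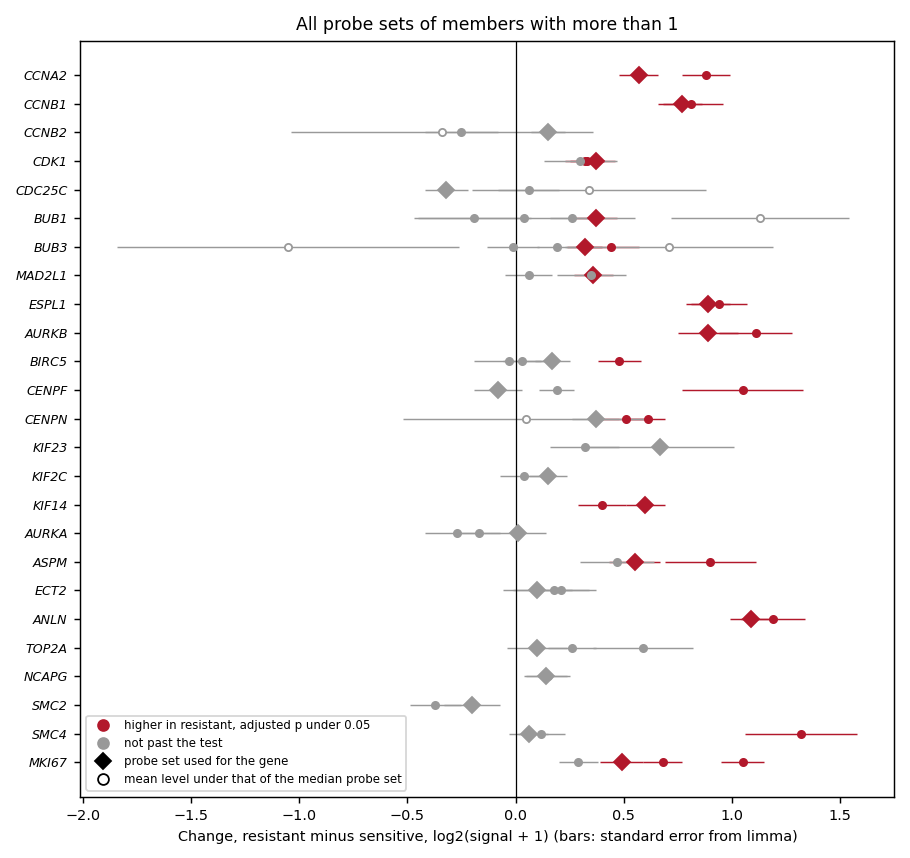
Change of every probe set of the 25 members with more than 1, log2(signal + 1), resistant minus sensitive, with standard errors from limma; diamonds mark the probe set used for the gene, open symbols those dimmer than the median probe set, and colours the test over all probe sets. CCNA2, CCNB1, ESPL1, AURKB, KIF14 and ANLN have every probe set on the higher side and past the test, while those of BUB3 and CENPF spread.

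Related genes outside the 50 were taken from 7 lists of mitosis with 117 measured genes. Of these, 49 rose (41.9%), 7 fell (5.98%) and the median change was 0.25, against 54%, 2% and 0.33 for the 50 members. Over all genes 14.7% rose and 15.6% fell, and over the bright genes 27.1% and 25.9%. The lists were not tested against these shares. The number of rises was 32 without resistant array 2 and also 32 without resistant array 3. Among other kinetochore and centromere genes 13 of 28 rose and 2 fell, and whether this share differs from that of the 7 members was not tested. SKA3, which helps kinetochores track microtubule ends, rose by 0.94 ± 0.16 and CENPI, of the inner kinetochore, by 0.74 ± 0.12 (adjusted p = 0.00391 and 0.00274). The call of CENPI was lost with the mean of its probe sets (0.47, adjusted p = 0.114). DSN1, of the MIS12 complex, rose by 0.81 ± 0.22 (adjusted p = 0.0307) but did not pass without resistant array 1, 2, 3 or 4 or sensitive array 3 or 4 (0.77 to 0.87, adjusted p up to 0.0777). HJURP, the chaperone that loads CENPA, fell by 1.14 ± 0.09 (adjusted p = 0.000118). It had 10.14, 10.11, 10.22 and 10.43 on resistant arrays, against 11.40, 11.33, 11.36 and 11.36 on sensitive arrays. CENPH, also of the inner kinetochore and named after its value was seen, was the other that fell, by 0.46 ± 0.08.

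Among 31 other mitotic kinesin and spindle genes, 13 rose (41.9%, against 27.1% of the bright genes) and 1 fell. The gene that fell was the kinesin gene KIF15 (-0.57 ± 0.09), which is named after its value was seen. FAM83D, a spindle protein that anchors casein kinase, rose by 1.51 ± 0.07 (adjusted p = 1.62e-05), more than any of the 50 members. TACC3, which stabilises spindle fibres, rose by 0.71 ± 0.11, and HAUS1, of the augmin complex, by 0.58 ± 0.13. KIF20B rose by 0.94 ± 0.19, but with the mean of its probe sets it changed by -0.16 (adjusted p = 0.683). In the list of the anaphase-promoting complex and its regulators, 7 of 16 rose (43.8%, against 27.1% of the bright genes). They included the subunit genes CDC26 (0.83 ± 0.08), ANAPC7 (0.53 ± 0.09) and ANAPC13 (0.51 ± 0.06). On probe sets without a suffix ANAPC13 did not pass (1.66, adjusted p = 0.116). The subunit gene ANAPC16 fell by 0.80 ± 0.11 (adjusted p = 0.00124).

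Cohesin, which holds sister chromatids together, showed 2 rises and 2 falls among 15 genes (13.3% each) and a median change of 0.01. These shares are near the 14.7% that rose and 15.6% that fell over all genes, which include dim genes. They lie under the 27.1% and 25.9% of the bright genes, and the difference was not tested. The 2 acetyltransferases that make cohesion stable moved apart, with ESCO2 rising by 0.96 ± 0.12 and ESCO1 falling by 1.02 ± 0.14 (adjusted p = 0.000945 and 0.00147). With the mean of its probe sets ESCO2 changed by 0.29 (adjusted p = 0.537). STAG2, a cohesin subunit, fell by 0.46 ± 0.09, but with the mean of its probe sets the change of -0.39 did not pass (adjusted p = 0.0563). CDCA5, the gene of sororin, rose by 0.46 ± 0.14 (adjusted p = 0.0468), a call lost without any of the arrays except resistant array 4 (adjusted p up to 0.117). Of 4 other condensin genes 2 rose (50%, against 27.1% of the bright genes), NCAPD3 by 0.41 ± 0.08 and NCAPD2 by 0.27 ± 0.08. The call of NCAPD2 was lost without any of the arrays except resistant array 4 (adjusted p up to 0.0993).

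Of 7 genes that control mitotic entry, 4 rose (57.1%, against 27.1% of the bright genes) and 0 fell. CDC25A, a CDK phosphatase of G1/S and mitosis, rose by 1.75 ± 0.07 (adjusted p = 1.08e-05), while its relatives CDC25B and CDC25C changed by 0.45 and -0.32. CDCA3, which takes part in the breakdown of the CDK1 inhibitor WEE1, rose by 0.82 ± 0.12, and the F-box gene CCNF by 0.70 ± 0.16. FBXW11, an F-box protein that also marks WEE1 for breakdown, rose by 0.44 ± 0.12, though not without resistant array 1, 2 or 3 or sensitive array 1 or 4 (adjusted p up to 0.0691). In the list of MuvB, MYBL2 and E2F factors, 8 of 16 rose (50%, against 27.1% of the bright genes) and 1 fell. E2F8 rose by 0.87 ± 0.17, TFDP1, the partner of E2F proteins, by 0.75 ± 0.08 and E2F1 by 0.62 ± 0.16. The pocket protein gene RBL2 (p130), which is part of the repressive DREAM complex, fell by 0.74 ± 0.14 (adjusted p = 0.00633). In the same list RBL1 and RBBP4, named after their values were seen, rose by 0.58 ± 0.08 and 0.43 ± 0.07 (adjusted p = 0.00123 and 0.00414). With the mean of its probe sets RBL1 did not pass (0.42, adjusted p = 0.328). E2F1 did not pass without resistant array 1, 3 or 4 or sensitive array 1, 2 or 3 (adjusted p up to 0.0672).

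The genes of DNA replication and G1/S were compared as the nearest other stage of the cycle. Of 48 measured, 32 rose (66.7%) and 2 fell, with a median change of 0.53, against 27 of 50 (54%), 1 and 0.33 for the mitotic genes. Rises made up 14.7% of all genes and 27.1% of the bright genes. A rise of at least 2-fold that also passed the test was seen in 15 of the replication genes, in 3 of the mitotic genes and in 3.12% of all genes. CCNE2, the gene of cyclin E2, rose by 2.17 ± 0.14 and UHRF1, needed to maintain DNA methylation, by 1.46 ± 0.10. The initiation factor gene CDC6 rose by 1.35 ± 0.10. CCNE1 rose by 1.5 ± 0.23, but with the mean of its probe sets it changed by 0.08 (adjusted p = 0.913). The 2 that fell, CDT1 and RFC2 (named after their values were seen), changed by -0.41 ± 0.12 and -0.29 ± 0.07, and with each array centred on its median neither passed (-0.33 and -0.22, adjusted p = 0.0871 and 0.124). With the mean of its probe sets CDT1 changed by 0.00 (adjusted p = 0.996). The difference between the 2 stages is given as counts and medians and was not tested.

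**Figure D5:**
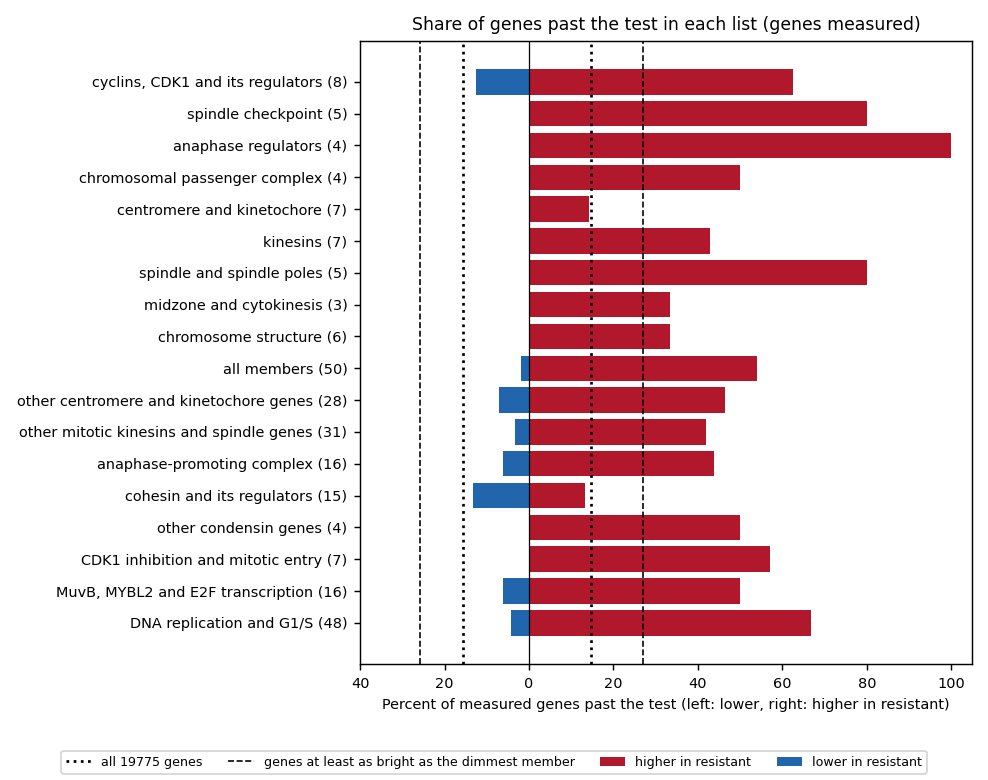
Percent of the measured genes of each list that passed the test, higher in resistant cells to the right of 0 and lower to the left; numbers in brackets are genes measured, and the vertical lines give the shares over all genes (dotted) and over genes at least as bright as the dimmest member (dashed). The anaphase regulators reach 100%, and the centromere and kinetochore members lie near the share of all genes and under that of the bright genes.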

How the data were processed

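Values were the authors' deposited intensity signals of 54675 probe sets, 62 of them controls, on 8 arrays. RMA is named in the submitters' processing notes. The deposited signals are linear and reach below 1, and the mean left after trimming 2% at each end is 200 on every array. This is not the form of RMA values, so the step that made them is not settled. Scaling to 1 mean hides changes in total RNA, and low signals are noisy. The number of arrays, 4 per group, limits precision.

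From these, log2(signal + 1) was computed with no further normalization. This scale understates changes of dim genes. The platform annotation named 42898 probe sets, of which 41097 had 1 symbol, 1801 had several and were left out, and 11777 were unlisted. Symbols of 41043 were updated to RefSeq (GRCh38.p14). The brightest probe set stood for each of 19775 genes. The comparison of groups used limma 3.58.1 (R 4.3.3) with Benjamini-Hochberg adjustment over all genes, or over 54613 probe sets without controls. The fit was tested on simulated data. Array measures had exact permutation tests. Same-numbered arrays did not deviate together (correlations of -0.03 to 0.01), so the numbers were not used as pairs.

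Members and lists were chosen with earlier results of these data known, and so was the naming rule: any member, and from each other list up to 4 passing genes with the largest changes. Motifs were searched on both strands. Genes of a list with no probe set of 1 symbol were not analysed here. Alternatives are listed in the closing section.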

Additional observations from a re-analysis of the deposited data

Results flagged for a closer look

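A value on 1 array stood far from the other 3 of its group, by the gap to the nearest array over the group's range, in 4 of 100 tests over the 50 genes and both groups. Chance gives about 1 in 20. NUF2 on resistant array 4, at a log2 level of 9.51, lay under the other resistant arrays (9.84 to 9.85). AURKB on resistant array 4, at 9.66, lay under the others as well (9.89 to 9.91). CDC25B on sensitive array 2, at 10.15, lay under the other sensitive arrays (10.31 to 10.33), and ASPM on sensitive array 4, at 10.43, lay above the others (10.26 to 10.28). AURKB, CDC25B and ASPM passed with each array left out in turn.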

How the results depend on the processing

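Of the 28 members that passed, 20 kept their call and direction under every alternative in which they were measured, and 25 did so with each array left out in turn. Of the 22 that did not pass, 13 passed under none. Leaving out 1 array at a time gave 25 to 27 members higher and 0 to 2 lower, with a median change of 0.31 to 0.35. It gave 0 to 2 cyclin-group genes lower, 0 to 1 kinetochore and 1 to 2 chromosome-structure genes higher, 32 to 43 genes of the other mitosis lists higher, and 1 to 2 replication genes lower. Members were higher and lower in 27 and 1 cases with quantile normalization, 28 and 1 with median centring (median change 0.41), and 27 and 1 with a pseudocount of 16. Centring shifts all genes: their median change moved from -0.03 to 0.04. All genes higher and lower went from 2900 and 3086 to 3194 and 2433. Members higher and lower numbered 31 and 1 with dim genes left out, 26 and 0 with the mean of a gene's probe sets, and 31 and 2 with an intensity trend and robust prior. With the replicate number as a block, though the numbers did not pair the arrays, 21 were higher and 0 lower, with 2 checkpoint, 0 kinetochore and 1 chromosome-structure genes, 25 genes of the other lists higher, and 0 cyclin-group and 0 replication genes lower. Without probe sets of the suffix _x_at or _s_at, 38 members were measured, 19 higher and 1 lower (median change 0.35): 3 cyclin-group, 2 anaphase, 2 kinetochore, 2 spindle pole and 0 chromosome-structure genes were higher, and 0 cyclin-group, 1 chromosome-structure and 0 replication genes were lower.

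Dim genes left out, or the trend, gave 4 passenger-complex and 2 kinetochore genes higher, and the trend 2 cyclin-group genes lower. The mean of probe sets gave 2 checkpoint genes higher, and 0 cyclin-group and 0 replication genes lower. Replication genes lower numbered 1 with quantile normalization and 0 with centring. Chosen after seeing the data, leaving out resistant array 4 and sensitive array 1 gave 24 members higher and 2 lower (both of the cyclin group), with 1 passenger-complex, 0 kinetochore and 1 chromosome-structure genes higher. Direction turned with the mean of probe sets for CDC25C (0.03), CENPF (0.39), KIF20B (-0.16) and CKAP2 (-0.01), and without suffixed probe sets for CDC25C (0.34), BUB3 (-1.05), CENPF (1.05), GTSE1 (-0.35) and POLA2 (-0.29). These alternatives read other probe sets of the gene, and the cause was not tested. Signal near background limits the dim probe sets.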
